A study of Mus musculus with 14 samples.

Results

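The genes described here are 10 genes of the YAP and TEAD system, chosen by symbol out of the 24411 gene symbols counted: Cyr61, Ctgf, Ankrd1, Amotl2, Ajuba, Lats2, Yap1, Wwtr1, Tead1 and Nuak2. The cells are MC-38, a colon cancer line from the mouse. Cyr61 and Ankrd1 were taken because their counts differed with chromatin of neutrophil extracellular traps (NETs) and between hosts in these libraries. Their values are therefore given as a description, with no test in any comparison. The other 8 genes were tested in fits across all genes.

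RNA was sequenced in 14 libraries of 6 groups. In culture, 3 libraries came from MC-38 cells given NET chromatin collected from neutrophils, and 3 came from untreated MC-38 cells. From lung tumours, MC-38 cells expressing green fluorescent protein were flow-sorted on day 30. There were 4 tumour groups of 2 libraries: PAD4 knockout (KO) hosts with laparotomy on days 0 and 10, KO hosts without surgery, wild-type (WT) hosts with laparotomy on the same days, and WT hosts without surgery. PAD4 is the histone-citrullinating enzyme used in NET release, and the knockout is in the host: the genotype entry reads WT for every sample, cultured or sorted. Strain, age and sex of the mice, the kind of knockout allele and any sham operation were not given in the sources used here. Whether the libraries within a group are from separate animals or cultures is also unlabelled, and the p-values below cover only the spread between libraries, which may be technical.

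YAP (encoded by Yap1) and TAZ (encoded by Wwtr1) are coactivators that carry signals of cell density, stiffness and shape into the nucleus. The kinases LATS1 and LATS2 phosphorylate them and keep them in the cytoplasm. In the nucleus they bind TEAD factors, which recognise the core GGAATG, and raise genes such as Cyr61, Ctgf and Ankrd1. Several targets, among them Lats2 and Amotl2, act back on YAP and restrain it. Because YAP and TAZ are set largely by phosphorylation and location, mRNA levels do not measure their activity.

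RefSeq promoter sequence (build GRCm38.p6) was matched for 7 of the 10 genes, and not for Ctgf, Tead1 and Nuak2. The 250 bases before the RefSeq start held the TEAD core GGAATG, or CATTCC on the opposite strand, in 6 of these 7. Lats2 was the exception, with no core at any of its annotated starts. The same core was present in 12.6% of 32851 promoters of this length. Neither the AP-1 motif TGANTCA (6.75% of promoters, both strands) nor a CArG box (1.47%), the element of serum response factor, was found in any of the 7. Of these 7, the promoters of 4 are shown, because the gene was chosen for its differences between groups (Cyr61 and Ankrd1) or because they pair a target with a regulator of the pathway (Amotl2 and Ajuba). All 4 hold the core, and Lats2, which also pairs a target with a regulator, is not shown. Capitals mark the TEAD core on either strand, and each sequence runs 5′ to 3′ and ends at the base before the start.
Cyr61: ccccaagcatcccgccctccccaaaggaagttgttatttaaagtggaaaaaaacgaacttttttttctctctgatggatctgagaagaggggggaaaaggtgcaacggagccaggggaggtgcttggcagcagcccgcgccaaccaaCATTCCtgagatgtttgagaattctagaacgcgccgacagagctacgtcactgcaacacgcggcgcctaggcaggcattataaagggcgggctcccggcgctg
Ankrd1: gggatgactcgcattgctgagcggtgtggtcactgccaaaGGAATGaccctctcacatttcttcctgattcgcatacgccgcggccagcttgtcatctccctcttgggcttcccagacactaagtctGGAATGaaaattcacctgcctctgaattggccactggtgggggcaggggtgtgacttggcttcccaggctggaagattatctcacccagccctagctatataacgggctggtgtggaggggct
Amotl2: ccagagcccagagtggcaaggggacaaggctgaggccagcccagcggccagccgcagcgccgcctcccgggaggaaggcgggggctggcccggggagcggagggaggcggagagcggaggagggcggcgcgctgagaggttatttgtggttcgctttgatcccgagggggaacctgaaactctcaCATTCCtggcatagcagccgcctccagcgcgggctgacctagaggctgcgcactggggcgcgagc
Ajuba: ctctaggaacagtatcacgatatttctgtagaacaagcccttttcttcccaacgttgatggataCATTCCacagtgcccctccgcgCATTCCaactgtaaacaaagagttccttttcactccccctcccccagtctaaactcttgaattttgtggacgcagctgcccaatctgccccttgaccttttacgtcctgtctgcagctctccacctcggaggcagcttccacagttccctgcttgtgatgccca
The Cyr61 window lies at chr3:145649986-145650235, minus strand, with its core 103 to 98 bases before the start. The Ankrd1 window (chr19:36119845-36120094, minus strand) has cores at 210 to 205 and at 123 to 118 bases. The Amotl2 window (chr9:102717554-102717803, plus strand) has 1 core at 65 to 60 bases. The Ajuba window (chr14:54577662-54577911, minus strand) has cores at 186 to 181 and at 164 to 159 bases. The Ankrd1 and Amotl2 windows lie inside the GENCODE spans of these genes given below, so they are not upstream of every annotated start. A match describes these letters only and does not show that TEAD binds there.

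Gene counts ranged from 6.39 to 20.6 M per library in culture and from 10.8 to 31.3 M in tumours. Genes varied more between tumour libraries of a group (common coefficient of variation beyond counting error, 0.278) than between cultures (0.0633). The tumour libraries were sorted cells, yet they held transcripts of host cell types. WT control replicate 2 stood apart: 8 pan-leukocyte markers summed to 875 CPM there (counts scaled to a common library total), against 60.4 to 154 CPM in the other tumour libraries, and 8 lung epithelial markers to 784 CPM, against 16.3 to 410 CPM. In a mixed library, fewer cells of a type and less RNA per cell cannot be told apart. The 9 intestinal epithelial markers, listed for a colon line, summed to only 0.913 to 1.93 CPM in cultures and 2.01 to 32.0 CPM in tumours.

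Levels are CPM scaled with trimmed-mean (TMM) factors, calculated separately for cultures and tumours. Per kilobase of annotated exon, Cyr61 was the most abundant of the 10 mRNAs in NET cultures and in the 4 tumour groups, with means of 93.8 CPM per kb in NET cultures and 199 to 391 CPM per kb in tumours. In control cultures it was second, at 25.3 CPM per kb, to Wwtr1 at 29.3 CPM per kb. Ankrd1 averaged 6.11 to 34.4 CPM per kb over the 6 groups. Group means of Wwtr1 were 19.0 to 29.3 CPM per kb. Those of Yap1, Tead1 and Ajuba all lay between 9.94 and 17.6 CPM per kb, and those of Lats2 (3.43 to 5.52) and Amotl2 (1.93 to 8.10) were lower. Ctgf and Nuak2 were at or near 0 in culture and reached group means of 5.47 and 1.63 CPM per kb in WT control tumours.

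**Figure D1:**
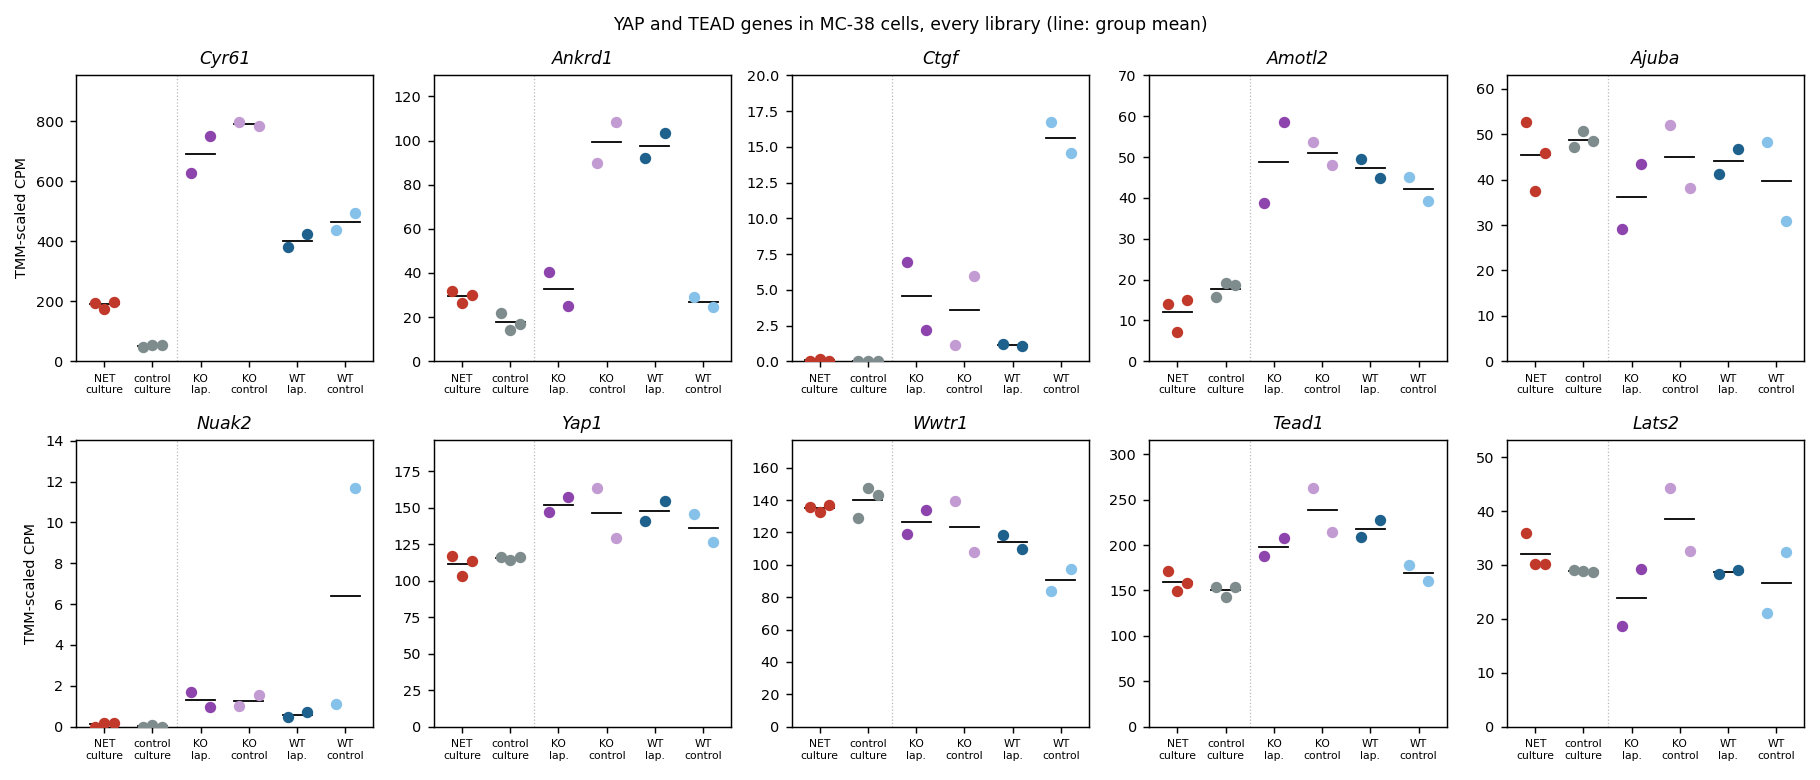
Level of each of the 10 genes in every library, as TMM-scaled CPM, with 1 panel per gene, 1 point per library and bars at the group mean; tumour and culture libraries were scaled separately. Cyr61 separates KO from WT tumours, Ankrd1 is high in WT laparotomy and KO control tumours, and Yap1 stays between 103 and 164 CPM in all 14 libraries.

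Cyr61 (chr3:145646976-145649981, minus strand, GRCm38; named Ccn1 in the annotation) encodes a secreted matricellular protein of the CCN family and is a standard readout of YAP and TAZ. It was at 194, 175 and 199 CPM in NET cultures, against 47.0, 52.8 and 53.2 CPM in control cultures. Every NET culture was above every control culture (60.1% of the 11753 genes tested did not overlap in this comparison, in either direction), with means of 189 ± 12.7 and 51.0 ± 3.45 CPM (SD, n = 3 each) and a log2 fold change of 1.89 ± 0.075 (SE). Markers of blood cells were higher in the same libraries: 8 pan-leukocyte markers summed to 11.9 to 15.3 CPM in NET cultures and 3.12 to 3.54 CPM in control cultures, and 8 neutrophil markers to 8.57 to 11.3 CPM and 0.304 to 0.942 CPM. Most of the neutrophil sum in NET cultures was Mmp8 (5.87 to 7.75 CPM). S100a9 was at 0.979 to 1.43 CPM there with no count in control cultures, while Retnlg had no count in either. The 9 monocyte and macrophage markers summed to 143 to 168 CPM in NET and 80.7 to 100 CPM in control cultures, mostly Cd68 in both. All 4 of them that could be tested were called higher in edgeR, as were 26.3% of all genes. The part of these blood cell markers in the Cyr61 difference was not tested.

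In tumours, Cyr61 was at 627 and 751 CPM in KO hosts with laparotomy, 796 and 783 CPM in KO controls, 379 and 423 CPM in WT hosts with laparotomy and 437 and 493 CPM in WT controls. All 4 KO libraries were above all 4 WT libraries. Groups did not overlap for 52.3% of the 14615 genes tested between KO and WT hosts with laparotomy and for 44.4% between the controls. The log2 fold change of KO over WT hosts was 0.78 ± 0.12 with laparotomy and 0.76 ± 0.12 without it (SE). Laparotomy libraries were below their own controls in both hosts, with log2 fold changes of -0.20 ± 0.12 in KO hosts and -0.21 ± 0.12 in WT hosts, and the difference between these was 0.02 ± 0.18. From low to high, the group means ran control culture, NET culture, WT laparotomy, WT control, KO laparotomy and KO control, and no neighbours in this order overlapped.

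Summed fibroblast markers were 5112 and 11519 CPM in KO laparotomy tumours and 7489 and 4198 CPM in KO controls, against 4406 and 3046 CPM in WT laparotomy tumours and 4894 and 3784 CPM in WT controls. The KO and WT ranges overlapped, with KO control replicate 2 inside the WT range. For KO over WT hosts, 7 of the 8 fibroblast markers were above 0 with laparotomy (median log2 fold change 1.30). Without surgery 6 of 8 were (median 0.55), and the medians over all genes were 0.01 and -0.02. Adjusted p-values of the 8 markers in edgeR ranged from 0.129 to 0.972, where only 0.0205% and 0.116% of all genes passed the threshold. The part of fibroblast RNA in the Cyr61 level was not tested.

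Ankrd1 (chr19:36111961-36120099, minus strand) encodes an ankyrin repeat protein known from heart muscle and is another common YAP readout. It was at 31.7, 26.5 and 29.9 CPM in NET cultures, against 22.0, 14.3 and 16.7 CPM in control cultures, a log2 fold change of 0.76 ± 0.13 (SE). The groups did not overlap, with means of 29.4 ± 2.67 and 17.6 ± 3.93 CPM (SD, n = 3 each), and the difference was smaller than that of Cyr61 on the same scale. A list of 8 cardiac and skeletal muscle markers summed to 5.39 to 10.4 CPM in NET cultures and 2.59 to 4.07 CPM in control cultures. Most of the sum in NET cultures was Tnnt2 (3.18 to 8.26 CPM, against 0.609 to 1.10 CPM in control cultures). Of the 2 muscle markers tested in culture, the other, Tnni3, went the other way (-0.43, edgeR, adjusted p = 0.299). The part of the list in the Ankrd1 difference was not tested.

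In tumours Ankrd1 did not follow Cyr61. It was at 40.6 and 25.2 CPM in KO hosts with laparotomy and at 90.1 and 108 CPM in KO controls. In WT hosts it was at 92.3 and 103 CPM with laparotomy and at 29.1 and 24.6 CPM without. The high and the low groups were thus crossed: laparotomy libraries were the low ones in KO hosts (log2 fold change -1.59 ± 0.22) and the high ones in WT hosts (1.87 ± 0.22). The difference between those laparotomy effects was -3.46 ± 0.32 on the log2 scale. KO over WT hosts gave -1.57 ± 0.22 with laparotomy and 1.89 ± 0.22 without surgery, from libraries that the laparotomy contrasts share. Laparotomy and control libraries did not overlap for 42.1% of all genes tested in KO hosts and 57.3% in WT hosts. In the order of group means, WT control, NET culture and KO laparotomy overlapped with their neighbours, and so did WT laparotomy and KO control at the top.

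Summed muscle markers (8 genes) were higher in the KO group with high Ankrd1. The sums were 8.81 and 4.18 CPM in KO laparotomy and 25.9 and 19.1 CPM in KO control tumours, against 10.0 and 10.2 CPM in WT laparotomy and 11.6 and 12.2 CPM in WT control tumours. Tnnt2, the cardiac troponin T gene, singled out after its values were seen, was at 6.25 and 2.90 CPM in KO laparotomy, 23.5 and 15.7 CPM in KO control, 8.98 and 8.91 CPM in WT laparotomy and 7.31 and 5.74 CPM in WT control libraries. As for Ankrd1, its laparotomy libraries were the low ones in KO hosts and the high ones in WT hosts. The rise in WT hosts was only 0.46 ± 0.38 (edgeR, adjusted p = 0.569). The difference between those effects was -2.56 ± 0.55 (edgeR, adjusted p = 0.0786), and DESeq2 called it (adjusted p = 0.000884). Of the other muscle markers tested, Nppa had a difference of -0.39, while Acta1 (3.04) and Tnni3 (0.77) went the other way. Tnnt2 made up most of the muscle sum in KO controls, so that sum is not separate from it. Pan-leukocyte sums were 131 and 88.4 CPM in KO laparotomy, 94.3 and 154 CPM in KO control, 87.8 and 60.4 CPM in WT laparotomy and 123 and 875 CPM in WT control libraries, and neither list's part in the Ankrd1 pattern was tested.

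Ctgf (chr10:24595442-24598683, plus strand; Ccn2 in the annotation), the matricellular relative of Cyr61 and the other standard YAP target, was almost silent in culture. Its counts were 0, 1 and 1 in NET cultures, out of 35.5 M, and 0 in each of the 3 control cultures, out of 33.4 M. It was therefore left out of the culture test by the filter on low counts. All 8 tumour libraries held it, at least 12.6-fold (lowest library, 1.07 CPM) to 196-fold (highest, 16.7 CPM) above the 0.0852 CPM that 3 counts over all control cultures would give. The cultures and tumours were scaled separately, and the comparison has no test.

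Within tumours, Ctgf was at 6.92 and 2.16 CPM in KO hosts with laparotomy, 1.14 and 5.96 CPM in KO controls, 1.22 and 1.07 CPM in WT hosts with laparotomy and 16.7 and 14.6 CPM in WT controls. WT controls were above all other libraries. The log2 fold change of laparotomy over control in WT hosts was -3.77 ± 0.84 and did not pass the threshold of 0.05 (edgeR's quasi-likelihood test with Benjamini-Hochberg adjustment over all genes, adjusted p = 0.135). The laparotomy effect in KO minus WT hosts was 4.12 ± 1.12 (adjusted p = 0.123). Other settings changed both calls. DESeq2 gave adjusted p = 4.42e-05 for laparotomy in WT hosts and 0.00256 for the difference, the WT groups fitted alone gave 0.0397, and leaving out KO control replicate 2 gave 5.75 for the difference, with 0.0427. Over all alternatives the adjusted p ranged from 4.42e-05 to 0.710 for laparotomy in WT hosts and from 0.00256 to 0.426 for the difference.

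Nuak2, an AMPK-related kinase whose gene is a YAP target in human cells, was also near 0 in culture, with 4 counts over the NET cultures and 1 over the control cultures. It was at 1.68 and 0.944 CPM in KO laparotomy tumours, 0.987 and 1.55 CPM in KO controls, 0.479 and 0.693 CPM in WT laparotomy tumours and 1.10 and 11.7 CPM in WT controls. A single library, WT control replicate 2, held 355 of the 367 counts in WT controls. The edgeR log2 fold changes against WT controls were -3.45 ± 1.02 for laparotomy (adjusted p = 0.161) and -2.35 ± 0.96 for KO controls (adjusted p = 0.284). The KO against WT value was 0.21 without that library. With 1 library left out, the laparotomy value ran from -4.30 to -0.89. The difference between the hosts' laparotomy effects ran from 0.94 to 4.33. DESeq2 called the laparotomy value (adjusted p = 0.00908), as did the edgeR fit without WT control replicate 1 (-4.30, adjusted p = 0.0183), which also called the difference between the hosts' laparotomy effects (4.33, adjusted p = 0.0459). Over all alternatives the adjusted p ranged from 0.00908 to 0.817 for laparotomy and from 0.0459 to 0.783 for the difference.

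Host transcripts were also uneven in WT controls. In WT control replicates 1 and 2, summed markers were 123 and 875 CPM for leukocytes, 145 and 548 CPM for endothelium, 138 and 784 CPM for lung epithelium and 4894 and 3784 CPM for fibroblasts. In the same libraries Nuak2 was at 1.10 and 11.7 CPM and Ctgf at 16.7 and 14.6 CPM. By group mean both genes were highest in WT controls. For Nuak2 this rests on replicate 2, since replicate 1 was below KO laparotomy replicate 1 (1.68 CPM) and KO control replicate 2 (1.55 CPM). The leukocyte, endothelial and lung sums of WT controls were also higher than those of WT laparotomy tumours (60.4 to 87.8, 68.7 to 71.2 and 16.3 to 25.7 CPM), while the fibroblast sums overlapped. What share of either mRNA came from host cells was not tested.

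**Figure D2:**
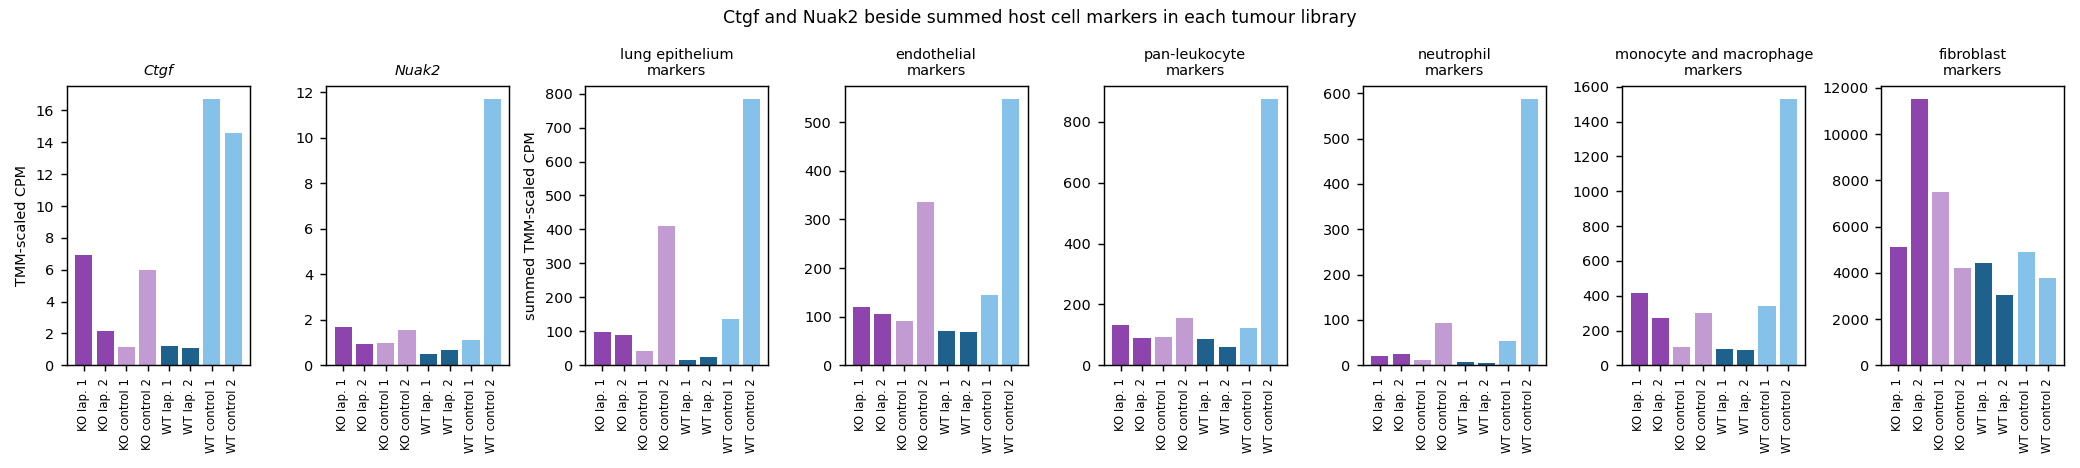
Ctgf and Nuak2 in the 8 tumour libraries beside the summed level of 6 host marker lists, 1 panel each, with 1 bar per library; all values are TMM-scaled CPM on linear axes from 0. WT control replicates 1 and 2 hold 1.10 and 11.7 CPM of Nuak2 and 16.7 and 14.6 CPM of Ctgf; 5 of the 6 marker sums are higher in replicate 2 and the fibroblast sum is higher in replicate 1.

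Amotl2 (chr9:102716672-102733418, plus strand), an angiomotin relative that binds YAP and holds it out of the nucleus, was the only gene of the 6 tested in culture to pass the threshold. It was at 14.1, 7.25 and 15.0 CPM in NET cultures, against 15.6, 19.1 and 18.6 CPM in control cultures. The groups did not overlap, and NET replicate 2 was the lowest. Amotl2 fell by 0.47 on the log2 scale (SE 0.17, adjusted p = 0.0283, edgeR), opposite in sign to Cyr61 and Ankrd1. The call was lost without control replicate 2 (adjusted p = 0.0890), control replicate 3 (0.0945) or NET replicate 2 (log2 fold change -0.29, adjusted p = 0.0583), and over all alternatives the adjusted p ranged from 0.000616 to 0.0945. Every tumour library was above every culture, and the tumour groups lay close together, at 38.8 and 58.5 CPM in KO laparotomy, 53.7 and 48.2 CPM in KO control, 49.6 and 44.9 CPM in WT laparotomy and 45.1 and 39.1 CPM in WT control libraries.

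Ajuba, a LIM-domain protein that binds LATS kinases and lowers their activity on YAP, was at 52.6, 37.6 and 46.0 CPM in NET cultures, against 47.2, 50.6 and 48.6 CPM in control cultures. The groups overlapped, with a log2 fold change of -0.09 ± 0.10 (adjusted p = 0.435). In tumours it spanned 29.1 to 52.0 CPM, and all 4 groups overlapped. Its log2 fold changes there lay between -0.32 and 0.19, none past the threshold.

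Of the coactivators, Yap1 was at 117, 103 and 114 CPM in NET cultures, against 116, 114 and 116 CPM in control cultures (log2 fold change -0.05 ± 0.067, adjusted p = 0.562). In tumours it was at 147 and 158 CPM in KO laparotomy, 164 and 129.6 CPM in KO control, 141 and 155 CPM in WT laparotomy and 146 and 126 CPM in WT control libraries. Its log2 fold changes in the 4 pairwise tumour comparisons were 0.04 to 0.12, with SEs of 0.14. Groups overlapped in each of these comparisons.

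Wwtr1 was at 136, 132 and 137 CPM in NET cultures, against 129, 148 and 143 CPM in control cultures (log2 fold change -0.05 ± 0.067, adjusted p = 0.551). In tumours it was at 119 and 134 CPM in KO laparotomy and 139 and 108 CPM in KO control libraries, and at 119 and 109 CPM in WT laparotomy and 83.8 and 97.5 CPM in WT control libraries. WT controls were lowest and did not overlap with either group compared with them. Neither KO over WT controls (0.44 ± 0.15, adjusted p = 0.219) nor laparotomy in WT hosts (0.33 ± 0.15, adjusted p = 0.280) passed the threshold.

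Tead1 (chr7:112679318-112906807, plus strand), a DNA-binding partner of both coactivators, was at 172, 149.8 and 158 CPM in NET cultures, against 154, 142 and 154 CPM in control cultures (0.09 ± 0.068, adjusted p = 0.269). In tumours it was at 188 and 208 CPM in KO laparotomy, 263 and 215 CPM in KO control, 209 and 227 CPM in WT laparotomy and 178 and 161 CPM in WT control libraries. The 4 tumour groups ranked by their means as they did for Ankrd1, with KO controls and WT laparotomy libraries at the top, over a narrower range. Laparotomy over control gave -0.27 ± 0.13 in KO hosts (adjusted p = 0.359) and 0.37 ± 0.13 in WT hosts (adjusted p = 0.195), and the groups did not overlap in either. The difference between those effects was -0.64 ± 0.18 (adjusted p = 0.132), and KO over WT controls was 0.50 ± 0.13 (adjusted p = 0.162). DESeq2 called the difference (-0.63, adjusted p = 0.0284) and KO over WT controls (0.49, adjusted p = 0.0162), and edgeR called neither. Over all alternatives the adjusted p ranged from 0.0284 to 0.426 for the difference and from 0.0162 to 0.406 for KO over WT controls.

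Lats2, the kinase that phosphorylates YAP and TAZ, was at 35.9, 30.2 and 30.1 CPM in NET cultures, against 29.0, 29.0 and 28.7 CPM in control cultures. The NET cultures were all above the controls, but the log2 fold change of 0.14 ± 0.094 did not pass the threshold (adjusted p = 0.207). In tumours it was at 18.7 and 29.2 CPM in KO laparotomy, 44.4 and 32.6 CPM in KO control, 28.3 and 29.1 CPM in WT laparotomy and 21.1 and 32.3 CPM in WT control libraries. KO laparotomy libraries were below KO controls (-0.68 ± 0.28, adjusted p = 0.281), without passing the threshold.

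**Figure D3:**
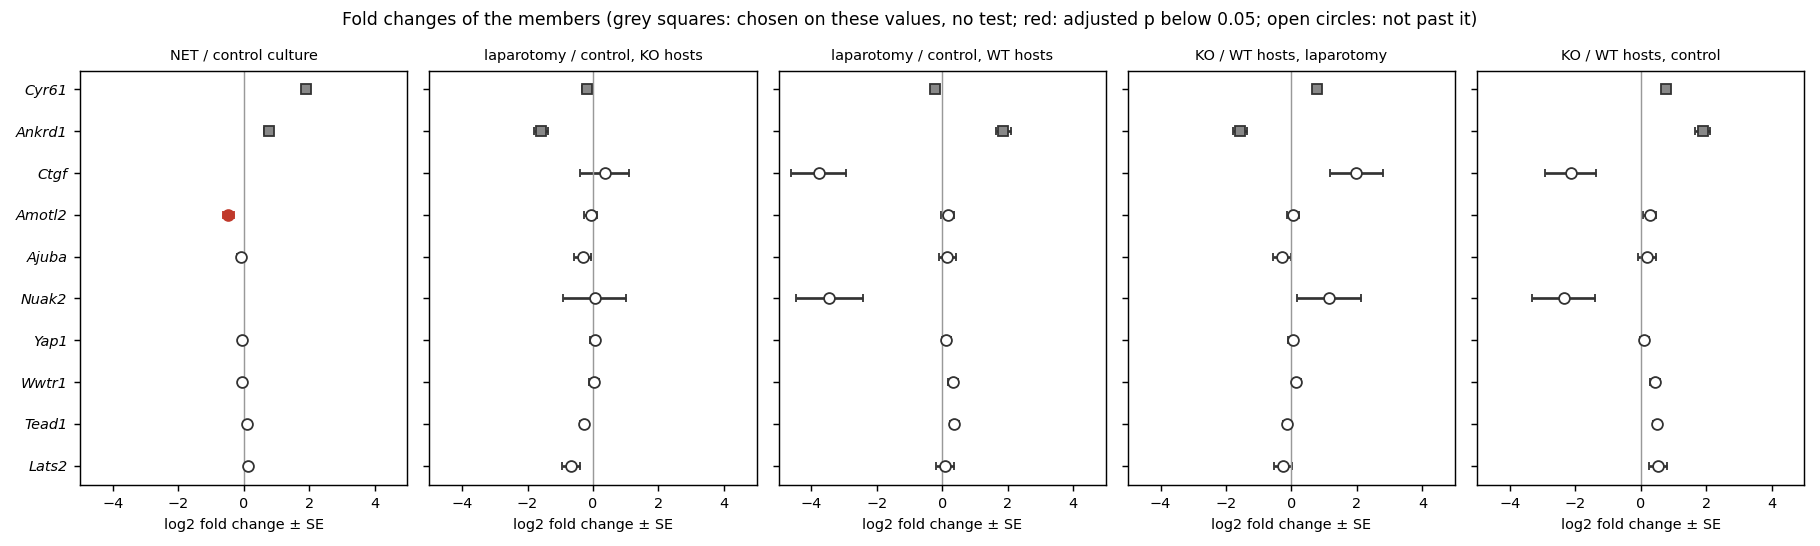
Log2 fold change with its SE for each of the 10 genes in the 5 comparisons of 2 groups, from edgeR fits across all genes; Ctgf and Nuak2 were too low to be fitted in culture. Grey squares mark Cyr61 and Ankrd1, which were chosen on these libraries; among the others (circles) only Amotl2 with NET chromatin, at -0.47, passed the threshold.

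The calls among the other 8 genes were read against all genes. With NET chromatin 1 of the 6 that could be tested passed the threshold, where 54.1% of 11753 genes did (26.3% higher and 27.8% lower), and their median log2 fold change was -0.05, against 0.00067 over all genes. In tumours none of the 8 passed in any comparison, where 0.0547% of 14615 genes passed for laparotomy in WT hosts, 0.52% for laparotomy in KO hosts, 0.116% for KO over WT controls, 0.0205% for KO over WT with laparotomy and 0.677% for the difference between laparotomy effects. At an unadjusted p under 0.05 the counts were 3, 1, 4, 1 and 3 of 8 in that order, against 18.8%, 15.7%, 16.3%, 13.4% and 19.2% of all genes, and with NET chromatin 1 of 6, against 59.4%. Groups did not overlap for 2 of 6 with NET chromatin, 4 of 8 for laparotomy in WT hosts, 2 of 8 for laparotomy in KO hosts, 5 of 8 for KO over WT controls and 4 of 8 for KO over WT with laparotomy. The shares of all genes were 60.1%, 57.3%, 42.1%, 44.4% and 52.3% in that order. DESeq2 called 2 of the 8 for laparotomy in WT hosts (Ctgf and Nuak2), 1 for KO over WT controls (Tead1), 2 for the difference (Ctgf and Tead1) and 0 in the other tumour comparisons. It called 8.26% of all genes for laparotomy in WT hosts, 5.36% for KO over WT controls, 7.92% for the difference, 5.4% for laparotomy in KO hosts and 3.88% for KO over WT with laparotomy.

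The wider pathway in culture was described from lists that hold none of the 10 genes. The leukocyte and neutrophil marker sums that differ between these cultures (given beside Cyr61) differ for every list alike, and their part was not tested. Among 16 other YAP and TAZ targets, 12 were tested, and 2 rose with NET chromatin, 6 fell and 4 did not pass the threshold, with a median log2 fold change of -0.22. Of all genes tested, 26.3% rose and 27.8% fell. Gadd45a, a growth arrest and DNA damage gene, rose by 0.40 ± 0.067 (adjusted p = 9.84e-05). Asap1, an Arf GTPase-activating protein, was at 31.5 ± 1.19 CPM in NET cultures and 65.8 ± 3.16 CPM in control cultures (log2 fold change -1.07 ± 0.080, adjusted p = 2.66e-08), and Foxf2 (-0.83) and Arhgef17 (-0.53) also fell. Myof rose by 0.21, a call lost when counts were scaled by library totals (adjusted p = 0.574) and without any 1 library other than NET replicate 1 (adjusted p = 0.0586 to 0.164).

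Of 26 other Hippo pathway and TEAD genes, 24 were tested, and 4 rose, 8 fell and 12 did not pass, with a median of -0.07. The share called was near the 54.1% of all genes. Of the MOB1 cofactors of LATS, Mob1b rose by 0.73 ± 0.11 and Mob1a by 0.33 ± 0.069, while Nf2, which encodes the upstream activator merlin, fell by 0.70 (76.9 ± 5.76 CPM in NET cultures and 126 ± 3.98 CPM in control cultures). The upstream kinase gene Taok3 fell by 1.12. Among TEAD factors, Tead3 fell by 1.14 (5.09 ± 0.737 CPM in NET cultures and 10.8 ± 0.856 CPM in control cultures) and Tead4 rose by 0.31 (41.7 ± 1.37 and 33.5 ± 2.93 CPM), a call lost with library totals (adjusted p = 0.153). Tead1 itself did not pass the threshold.

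Of 14 targets of serum response factor (SRF) and its MRTF coactivators, which answer to actin, 8 were tested, and 4 rose and 0 fell, with a median of 0.16. Flna, an actin crosslinker, was at 592 ± 21.8 CPM in NET cultures and 478 ± 8.33 CPM in control cultures (log2 fold change 0.31 ± 0.060, adjusted p = 0.000385). Fhl2 (0.30) and Tpm2 (0.20) also rose, and both calls were lost with library totals (adjusted p = 0.281 and 0.614). Fhl2 was also lost in DESeq2 (0.0716) and without control replicate 3 (0.117) or NET replicate 3 (0.235). Tpm2 was lost without control replicate 1 (0.0627) or 3 (0.167) and without NET replicate 2 (0.0842) or 3 (0.118). Both of the other CCN genes that could be tested fell, opposite to Cyr61: Wisp2 by 3.56 ± 0.54 (adjusted p = 3.76e-05) and Wisp1 by 1.72 ± 0.21 (adjusted p = 4.01e-06), at 2.23 ± 0.858 CPM in NET cultures and 7.72 ± 0.992 CPM in control cultures.

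Scaling by library totals moved the median of all genes in this comparison by -0.16 on the log2 scale, with 1640 genes higher and 4777 lower, against 3093 and 3270 with TMM. The list counts became 1 higher and 7 lower for other YAP and TAZ targets, 2 and 12 for Hippo and TEAD genes, 1 and 0 for SRF and MRTF targets and 0 and 2 for CCN genes. The median of the SRF and MRTF targets was then 0.0031, with 4 above and 4 below 0, and that of the other YAP and TAZ targets was -0.38. Cyr61 was still 1.74 higher on the log2 scale. Yap1 (-0.21), Wwtr1 (-0.21) and Ajuba (-0.25) then joined Amotl2 (-0.63) among the lower genes.

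**Figure D4:**
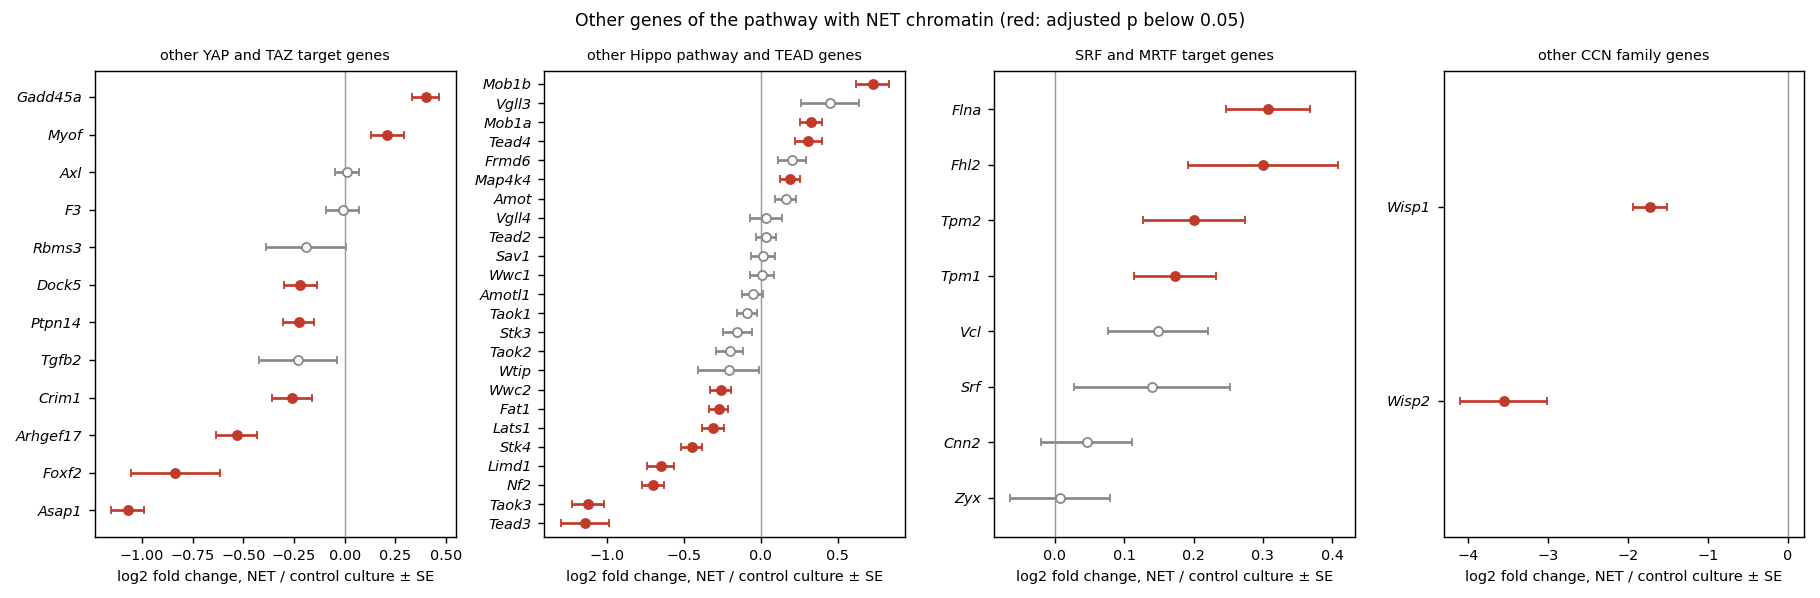
Log2 fold change with NET chromatin (NET over control culture, bars ± SE) for the tested genes of the 4 wider lists, 1 panel each with its own axis; filled red points passed an adjusted p of 0.05 in edgeR and open points did not. Other YAP and TAZ targets lie mainly below 0 (median -0.22) and SRF and MRTF targets above 0 (median 0.16) with TMM factors; with library totals the SRF and MRTF median was 0.0031.

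In tumours, no gene of these lists passed the threshold in edgeR in any of the 5 comparisons, out of 16 other YAP and TAZ targets, 26 Hippo and TEAD genes, 14 SRF and MRTF targets and 3 CCN genes tested. At an unadjusted p under 0.05 the counts per comparison were 3 to 7 of the other targets, 4 to 8 of the Hippo and TEAD genes, 4 to 6 of the SRF and MRTF targets and 1 to 3 of the CCN genes, where 13.4% to 19.2% of all genes had one. Over all genes, DESeq2 called 296 higher and 911 lower for laparotomy in WT hosts, 447 and 342 in KO hosts, 318 and 466 for KO over WT controls, 359 and 208 for KO over WT with laparotomy and 741 and 417 for the difference. DESeq2 called 4 higher and 2 lower among the other targets for laparotomy in WT hosts, 1 and 1 for laparotomy in KO hosts, 2 and 2 for KO over WT controls, 0 for KO over WT with laparotomy and 3 and 2 for the difference. Among Hippo and TEAD genes it called 4 higher for laparotomy in WT hosts, 1 higher for KO over WT controls, 3 lower for KO over WT with laparotomy and 3 lower for the difference. Among SRF and MRTF targets it called 1 higher and 3 lower for laparotomy in WT hosts, 1 and 1 in KO hosts, 2 and 1 for KO over WT controls, 3 and 0 for KO over WT with laparotomy and 4 and 1 for the difference. DESeq2 called 1 to 3 of the CCN genes in each comparison. The median log2 fold change of the other targets in edgeR was 0.15 for KO over WT controls and -0.01 for laparotomy in WT hosts, against -0.02 and -0.01 over all genes.

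The genes whose levels over the 8 tumour libraries most resembled Cyr61 were Eif1 (Pearson's r = 0.977), Trappc4 (0.967), Cd274 (0.966), Tmem128 (0.954) and Uqcrb (0.945), out of 10546 genes with a mean of at least 5 CPM. Cd274, which encodes the immune checkpoint ligand PD-L1, was at 29.6 and 32.8 CPM in KO laparotomy, 38.1 and 35.8 CPM in KO control, 21.1 and 23.4 CPM in WT laparotomy and 24.4 and 29.2 CPM in WT control libraries. The gene was picked for its likeness to Cyr61, so its host difference is no separate result. Among the 10 genes, the closest to Cyr61 was Wwtr1 (0.560), and Ankrd1 was at 0.016. For Ankrd1 the closest genes were Reps1 (0.983), Nfxl1 (0.976), Setd7 (0.969), 8030462N17Rik (0.964) and Rnf34 (0.961), and among the 10 Tead1 (0.747). These coefficients describe 8 libraries of 4 groups under 1 normalization, at different depths, and carry no test.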

How the data were processed

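The deposited tables hold whole read counts per gene symbol for each of the 14 libraries. Per the submitters' processing notes, reads were handled with Trimmomatic and STAR against mm10, with versions, options and kit not given in the sources used here. Per the labels' protocols, total RNA was extracted with TRIzol. The unstranded count column was used, which does not tell overlapping genes on opposite strands apart; 98.9 to 100% of the counts of the 10 genes lay on the larger strand. The 4 summary lines that name no gene were left out: unmapped reads were 4.00 to 11.5%, multimapping 6.14 to 9.25%, reads without a feature 12.1 to 24.0% and ambiguous reads 1.11 to 1.51%. Intervals and floors cover counting error only, since no molecular identifiers are given.

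The tests used edgeR 4.0.16 under R 4.3.3 (filterByExpr, TMM, quasi-likelihood test with robust estimation, Benjamini-Hochberg adjustment over all genes, threshold 0.05). The 6 culture libraries and the 8 tumour libraries, in 4 groups sharing 1 estimate of the spread, were fitted separately, with 4 residual degrees of freedom each. SEs come from the F statistic. Alternatives were other size factors, no filter, DESeq2 1.42.0, the strand column, a replicate block, the compared groups alone and each library left out. The fits were tested on simulated data with 200 changed genes.

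The 10 genes and the lists were chosen with earlier results of these data known. Tests of Cyr61 and Ankrd1 are not reported in any comparison, also for laparotomy, because its contrasts share libraries with those they were chosen on. From the wider lists, up to 3 of the largest rises and 3 of the largest falls past the threshold are named in each comparison; Axl, Tagln, Tnnt2 and, in tumours, Tead4 were chosen after their values were seen. The 5 genes most like Cyr61 and Ankrd1 were taken by Pearson correlation of log2(CPM + 1). Positions are from the GRCm38 annotation, GENCODE M21.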

Additional observations from a re-analysis of the deposited data

Results flagged for a closer look

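Ankrd1 had opposite laparotomy effects in the hosts: all laparotomy libraries were below their controls in KO hosts and above them in WT hosts. The difference was -3.46 on the log2 scale, and it was not tested, since the gene was chosen on these libraries.

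Tead1 did the same over a narrower range, with a difference of -0.64 on the log2 scale. Here the difference was tested and did not pass the threshold (edgeR, adjusted p = 0.132).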

How the results depend on the processing

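Genes called were 13 (RLE size factors), 166 (no filter), 1207 (DESeq2), 0 (replicate block) and 14 (groups alone) for laparotomy in WT hosts, against 8. They were 278 (no filter) and 789 (DESeq2) for laparotomy in KO hosts, against 76. For KO over WT controls they were 196, 784, 0 (block) and 0 (groups alone), against 17, and for KO over WT with laparotomy 152, 567, 1 and 220, against 3. For the difference they were 399, 1158 and 56 (block), against 99. Of the 8 tested genes, 4 were called with library totals in culture, and DESeq2 called 2, 1 and 2 for laparotomy in WT hosts, KO over WT controls and the difference; groups alone called 1 for laparotomy in WT hosts. Same-numbered libraries correlated at -0.06 to 0.11 in culture and -0.14 to 0.40 in tumours. The highest value, 0.40, was for KO and WT controls. With 2 libraries per tumour group both numbers gave the same value, so the tumour values are not separate for each library. Lung marker sums were also higher in replicate 2 of both control groups (784 and 410 CPM) than in replicate 1 (138 and 42.9 CPM). Whether same-numbered libraries are paired is not labelled. The replicate block changed no call of the 8. With 1 library left out, genes called ran 0 to 512, 0 to 138, 0 to 218, 0 to 2 and 0 to 344 in the same order of tumour comparisons. The highest counts came without WT control replicate 1 (512, 218 and 344) or KO control replicate 2 (138), and 0 without either WT laparotomy library for the comparisons that use WT laparotomy, except 1 for the difference without replicate 1, and without KO control replicate 1 for the 2 others. The tested genes called ran 0 to 1 with NET chromatin, for laparotomy in WT hosts and for the difference.

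Signs turned with library totals for Lats2 (-0.011) and Tead1 (-0.066) in culture and Amotl2 (-0.0042) and Yap1 (-0.0065) for KO over WT with laparotomy. With 1 library left out, log2 fold changes crossed 0 as follows: laparotomy in WT hosts, Lats2 -0.17 to 0.45, Ajuba -0.13 to 0.51; in KO hosts, Ctgf -0.74 to 1.99, Amotl2 -0.41 to 0.19, Nuak2 -0.44 to 0.41, Yap1 -0.11 to 0.24, Wwtr1 -0.14 to 0.24; KO over WT controls, Ajuba -0.10 to 0.56, Nuak2 -3.19 to 0.21, Yap1 -0.071 to 0.27; KO over WT with laparotomy, Yap1 -0.028 to 0.11, Amotl2 -0.29 to 0.31, Lats2 -0.63 to 0.026; the difference, Cyr61 -0.15 to 0.13, Yap1 -0.24 to 0.11, Amotl2 -0.58 to 0.022. The cause was not tested. With 2 libraries per tumour group, these counts rest on single libraries. Alternatives for genes of the wider lists were added after seeing the data.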

Other observations

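Outside the naming rule, a few genes of the wider lists were picked after their values were seen, and none passed the threshold in edgeR. Tead4, a TEAD factor, averaged 7.17 ± 1.27 CPM in KO laparotomy, 7.70 ± 0.0986 CPM in KO control, 18.8 ± 0.143 CPM in WT laparotomy and 7.81 ± 1.22 CPM in WT control tumours (SD, n = 2 each). Its log2 fold change was 1.26 ± 0.25 for laparotomy in WT hosts (adjusted p = 0.117) and -1.39 ± 0.25 for KO over WT with laparotomy (adjusted p = 0.106). DESeq2 called both (adjusted p = 0.00175 and 0.000538). Over the alternatives that kept both libraries of each compared group, the adjusted p ranged from 0.00175 to 0.134 for laparotomy in WT hosts. For KO over WT with laparotomy it ranged from 0.000538 to 0.144. In culture Tead4 averaged 41.7 ± 1.37 CPM with NET chromatin and 33.5 ± 2.93 CPM without (SD, n = 3 each). Of the tumour groups, WT laparotomy had the lowest leukocyte, endothelial and lung sums (60.4 to 87.8, 68.7 to 71.2 and 16.3 to 25.7 CPM). The part of host RNA in the Tead4 levels was not tested.

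Axl, a receptor tyrosine kinase and YAP target, averaged 252 ± 8.08 CPM in KO laparotomy and 427 ± 104 CPM in KO control tumours. Its log2 fold change was -0.76 ± 0.16 (edgeR, adjusted p = 0.0893). DESeq2 called it (adjusted p = 0.000226). Over the alternatives that kept both libraries of each compared group, the adjusted p for Axl ranged from 0.000226 to 0.152. With 1 library left out, its edgeR log2 fold change ran from -0.99 to -0.48. In WT hosts Axl went the other way, at 346 ± 12.5 CPM with laparotomy and 247 ± 8.03 CPM without. That change was 0.48 ± 0.16 (edgeR, adjusted p = 0.176). The difference between those effects was -1.24 ± 0.22 (edgeR, adjusted p = 0.0545). Tagln, a smooth muscle actin-binding protein, averaged 2.33 ± 0.273 CPM in WT laparotomy and 13.5 ± 1.77 CPM in WT control tumours, with a log2 fold change of -2.52 ± 0.43 (adjusted p = 0.0858). DESeq2 called it (adjusted p = 6.95e-06). Over the alternatives that kept both libraries of each compared group, the adjusted p for Tagln ranged from 6.95e-06 to 0.109. In cultures Tagln averaged 0.034 CPM with NET chromatin and 0.182 CPM without. The part of host cells in its tumour levels was not tested.

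Wisp1, a CCN gene that fell with NET chromatin, averaged 234 to 376 CPM in the 4 tumour groups, against 2.23 CPM in NET cultures and 7.72 CPM in control cultures. Fibroblast markers also differed between these materials, at 3046 to 11519 CPM in tumour libraries and 139.7 to 168 CPM in cultures, and their part in the Wisp1 level was not tested.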
